A study of Mus musculus with 24 samples.

Results

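Maternal choline supplementation was compared with the control diet in trisomic basal forebrain neurons. The comparison took 8 libraries titled as Ts65Dn with the treatment diet and 6 titled as Ts65Dn with the control diet, 14 of the 24 libraries of the series, and described them across all genes. Each library held RNA from about 500 neurons that were immunostained for choline acetyltransferase and cut by laser from the medial septum and the vertical limb of the diagonal band. The animals were males of about 6 months. The diet was eaten by their dams from conception to weaning, with 5.0 g of choline chloride per kg in the supplemented diet and 1.1 g per kg in the control diet. After weaning the offspring of every group were fed the control diet.

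Ts65Dn mice carry an extra copy of a segment of chromosome 16 and of a piece of chromosome 17 that is attached to it, and are used as a mouse model of Down syndrome. The extra chromosome is present in every cell of the body, so the dams, which were Ts65Dn females bred to males of a cross of C57Bl/6J Eicher and C3H/HeSnJ, were trisomic too. The remaining 10 libraries came from disomic (2N) mice of the same breeding, 4 supplemented and 6 on the control diet, and shared the trisomic dams. Litters are not named in the sources used here, so offspring of 1 dam cannot be told from offspring of several, and the p-values measure the spread between libraries. The study text gives 6 mice a group, while the titles give 8 and 6 here.

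Choline is the precursor of acetylcholine and of the membrane lipid phosphatidylcholine, and through its oxidation product betaine it supplies methyl groups to the methionine cycle. The cholinergic neurons of the medial septum and diagonal band project to the hippocampus, depend on nerve growth factor from their targets, and lose their phenotype with age in Ts65Dn mice and early in Down syndrome. They also receive glutamatergic input, which reaches them through AMPA and NMDA receptors held in place by postsynaptic scaffold proteins and by pentraxins.

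Supplemented Ts65Dn 2 and 5, whose animal numbers are 15-140 and 15-36, are titled Ts65Dn but stand in columns 2 and 4 of the deposited count matrix, among the supplemented 2N columns. A dosage index was taken as the mean log2 level of 76 triplicated genes of chromosome 16 less that of all tested genes, each centred over the 24 libraries. It was 0.21 and 0.23 in these 2 libraries, −0.06 to 0.42 over the 8 supplemented Ts65Dn libraries, −0.05 to 0.49 over the 6 control-diet ones and −0.57 to 0.03 over the 10 libraries of 2N mice. Both libraries lay above every 2N library in triplicated-gene dosage. They were kept where the titles put them, and results that rest on them are given with and without them.

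The Ts65Dn libraries also fell apart by a pattern that neither diet nor genotype names. Tatdn1, a TatD family DNase gene, stood at 15330, 12290, 78.2, 9964, 11570 and 17140 CPM (counts relative to library size, in the usual CPM unit, scaled by the TMM method) in control-diet Ts65Dn 1 to 6 and at 173, 7010, 149.8, 120.3, 8457, 2.84, 259.5 and 194 CPM in supplemented Ts65Dn 1 to 8. Thus 7 libraries were below 1000 CPM, supplemented 1, 3, 4, 6, 7 and 8 and control-diet 3, and the other 17 of the series, all 2N libraries among them, held 2400 to 17140 CPM. In the deposited count matrix these 7 stand side by side in columns 13 to 19, with control-diet 3 in column 19. Supplemented 2 and 5, without the pattern, stand apart from them in columns 2 and 4. The labels do not say what the column order reflects. Of 6025 genes with a mean over 20 CPM, 62 (1.03%) did not overlap between these 7 libraries and the other 17. The 49 that were higher in the 7 held 13 small nucleolar RNAs and 26 identifiers with no gene in the annotation, some of which repeat the same values. The 13 that were lower held 10 protein-coding genes. Among these were Tatdn1, on which the division was made, and the ribosomal protein genes Rps3, Rpl5, Rplp2 and Rpl23a, which host small nucleolar RNAs. Small nucleolar RNAs of the box C/D kind guide methylation of ribosomal RNA and are cut from introns of host genes.

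Snord15b, inside the ribosomal protein gene Rps3, and Snord21, inside Rpl5, are shown because host and guest went opposite ways across the same libraries. The sequences are those of the GENCODE M21 transcripts, with GRCm38 coordinates, and capitals mark the C box (TGATGA) and the D box (CTGA). Snord15b lies at chr7:99479563-99479707 on the minus strand and overlaps an exon in 1 of 5 Rps3 transcripts. Snord21 lies at chr5:107904555-107904648 on the plus strand and overlaps an exon in 1 of 6 Rpl5 transcripts.
Snord15b: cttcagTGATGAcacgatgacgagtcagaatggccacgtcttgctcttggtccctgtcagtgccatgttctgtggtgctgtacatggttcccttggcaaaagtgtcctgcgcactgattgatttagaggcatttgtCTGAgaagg
Snord21: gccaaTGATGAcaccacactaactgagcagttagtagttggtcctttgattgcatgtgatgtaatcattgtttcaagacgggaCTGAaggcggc

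Snord15b was at 5.86, 5.13, 3687, 29.7, 3.76 and 46 CPM in control-diet Ts65Dn 1 to 6 and at 3860, 0, 2258, 1874, 0, 2320, 4053 and 2114 CPM in supplemented 1 to 8. Its host Rps3 was at 1090, 549, 13.3, 722, 1046 and 2031 CPM and at 60.8, 385, 38.2, 29.3, 1856, 57.3, 60.5 and 60.2 CPM in the same order. Snord21 was at 13.7, 0, 781, 7.72, 0.269 and 2.82 CPM on the control diet and at 525, 0, 199.7, 170, 0, 728, 292 and 425 CPM after supplementation. In each of these the libraries low in Tatdn1 lay on the same side and all others on the opposite side, with control-diet 3 beside the supplemented libraries and supplemented 2 and 5 beside the controls. Rpl5 was at 171, 115, 3.14, 262, 106 and 610.4 CPM and 8.69, 68.7, 14.1, 16.6, 188, 16.8, 18.1 and 4.58 CPM and split in the same way. Bc1, a small neuronal RNA made by RNA polymerase III and carried into dendrites, was at 46.7, 35.1, 15440, 67, 22.8 and 97.4 CPM on the control diet and at 4929, 15.2, 4860, 3166, 51, 2834, 11690 and 4829 CPM after supplementation, again with control-diet 3 on the high side. Of the 8 supplemented libraries 6 were on the low side of Tatdn1 and of the 6 controls 1 was, so diet and this pattern overlapped, and fits with the pattern as a factor are given beside the results.

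**Figure D1:**
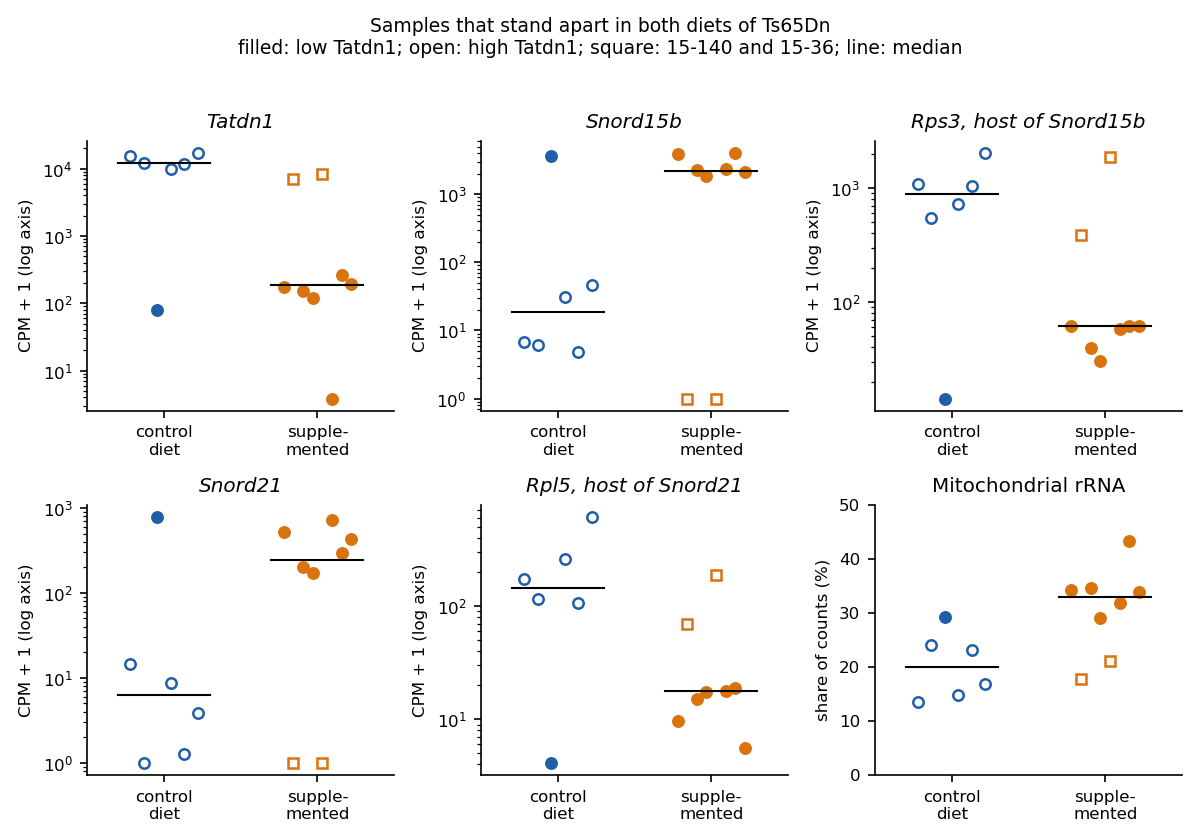
Level of Tatdn1, of 2 small nucleolar RNAs and their host genes (CPM + 1, log axis) and the share of counts on mitochondrial ribosomal RNA (percent, linear axis) in each library by group. Filled points are the 7 libraries low in Tatdn1 and squares are supplemented Ts65Dn 2 and 5; filled points lie together in every panel whatever their diet.

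Mitochondrial ribosomal RNA took 30.7 ± 8.08% of counts (SD, n = 8) in supplemented Ts65Dn and 20.3 ± 6.18% (n = 6) in control-diet Ts65Dn. The difference of 10.5 percentage points had p = 0.0253 in a two-sided exact permutation test over 3003 assignments. It was 9.11 points without control-diet 1 (exact permutation p = 0.0552) and 9.38 points without control-diet 4 (exact permutation p = 0.0521), which ended the call. It was 14.2 points without 15-140 and 15-36 (exact permutation p = 0.00433) and 1.03 points among the libraries high in Tatdn1 (2 against 5, exact permutation p = 0.762). Between libraries with animal numbers beginning with 16 it was 18.8 points, with an exact permutation p of 0.333, the smallest that 2 against 2 can give. The 7 libraries low in Tatdn1 held 29.0 to 43.3% and the other Ts65Dn libraries 13.5 to 24.1%, so the higher share followed the Tatdn1 pattern. Total counts ran from 4688258 to 11626586 on the control diet and from 5053130 to 11255859 after supplementation, and the number of genes with a count from 13102 to 20621 and from 13141 to 22593.

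Between supplemented and control-diet Ts65Dn mice, 26 of 19967 tested genes changed (0.130%) by edgeR's quasi-likelihood test at an adjusted p of 0.05. Of these, 16 were lower (0.0801%) and 10 higher (0.0501%) after supplementation. The 16 that fell held 14 protein-coding genes, among them Nptxr, Enc1, Camk2a, Grin2a, Chgb and Kif3a. The 10 that rose held 3 protein-coding genes of the mitochondrial genome, 2 pseudogenes, the small RNA gene Rprl2, the ubiquitin ligase gene Cbll1 and 3 identifiers with no gene in the annotation. An unadjusted p under 0.05 was found for 1920 genes. These were bulk samples of captured tissue, so fewer cells of a type and less RNA per cell cannot be told apart.

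The count of calls moved with the libraries. Without 15-140 and 15-36, 69 of 19537 genes passed (0.353%), 30 higher and 39 lower, and 21 of the 26 were among them. With the Tatdn1 pattern as a factor 53 passed (0.265%), 8 higher and 45 lower, of which 13 were among the 26, and 25 of the 26 kept their sign. The libraries high in Tatdn1 gave 2 supplemented (15-140 and 15-36) against 5 control-diet. Among them 4 of 19967 genes passed, with 0 of the 26, of which 23 kept their sign. Without 4 libraries (those 2, control-diet 3 and supplemented 7), 173 of 19355 passed (0.894%), with 20 of the 26. Control-diet 3 and supplemented 7 had the fewest genes with a count of the 24 libraries (13102 and 13141). Leaving out single Ts65Dn libraries gave from 12 calls (without supplemented 6) to 80 (without control-diet 3). The count was also more than 1.5 times away from 26 without control-diet 4 (57), control-diet 5 (16), control-diet 6 (13), supplemented 1 (14) or supplemented 4 (16).

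The animal identifiers begin with a number whose meaning the labels do not give, and it was unevenly spread over the diets. Of the controls 2 began with 16 and 4 with 17, and of the supplemented mice 1 began with 14, 4 with 15, 2 with 16 and 1 with 17. With this leading number as a factor 15 genes passed, 12 of them among the 26. Of the 19 genes that passed and have a name 6 kept their call there (Nptxr, Kif3a, mt-Nd1, mt-Nd6, mt-Atp6 and Rprl2) and 13 lost it, with the same sign. That fit takes all 24 libraries. Within 16 the comparison is 2 supplemented against 2 control mice, and within 17 it is 1 against 4, where the lone supplemented mouse is assumed to vary like the others.

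Among genes of glutamatergic transmission, Nptxr and Grin2a were lower after supplementation. Nptxr encodes the neuronal pentraxin receptor, a transmembrane pentraxin that gathers AMPA receptors at synapses. Its level was 388, 148, 1804, 81.9, 442 and 648 CPM in control-diet Ts65Dn 1 to 6 and 55.9, 75.9, 110.1, 78.5, 59.6, 66.3, 124 and 65.3 CPM in supplemented 1 to 8. Control-diet 3 was far above the rest, control-diet 4 lay inside the supplemented range, and 6 of 8 supplemented libraries were below every control. The fold change of −2.88 (SE 0.38, adjusted p = 2.71e-05) on the log2 scale was −2.10 (adjusted p = 0.000132) without control-diet 3 and −3.21 (adjusted p = 5.14e-08) with the Tatdn1 factor. It passed in all 14 settings that left out 1 library. Among the libraries high in Tatdn1 it was −2.33 (adjusted p = 0.0897) and did not pass. With the leading number of the identifier as a factor it was −2.38 (adjusted p = 0.0132), and it was −1.46 (adjusted p = 0.815) within 16 and −3.53 (adjusted p = 8.73e-06) within 17. Nptx1, a secreted partner of this receptor, had means of 137 and 39.4 CPM on the control and the supplemented diet. Its fold change of −1.80 did not pass (adjusted p = 0.0883), but did with the Tatdn1 factor (−2.26, adjusted p = 0.0129).

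Grin2a encodes the GluN2A subunit of NMDA receptors. It ranged from 119.5 to 269 CPM (median 194) on the control diet and 35.1 to 145 CPM (median 67.1) after supplementation, and 7 of 8 supplemented libraries were below every control. The log2 fold change was −1.37 (SE 0.31, adjusted p = 0.0464), and it was −1.54 (adjusted p = 0.0108) without 15-140 and 15-36 and −1.23 (adjusted p = 0.126) with the Tatdn1 factor, where it did not pass. It did not pass either with the leading number as a factor, at −1.31 (adjusted p = 0.356). Grin1, the obligatory subunit of the same receptors, ranged from 489 to 824 CPM (median 671) on the control diet and 536 to 875 CPM (median 630.2) after supplementation, with complete overlap and a fold change of −0.01 (adjusted p = 0.998). Grin2b had a fold change of −0.62 (adjusted p = 0.25), and the AMPA receptor subunits Gria1 and Gria2 had −0.30 (adjusted p = 0.733) and −0.69 (adjusted p = 0.265). Of 37 tested genes in the list of glutamate receptors and their partners, 2 were lower and 0 higher at the threshold. A positive fold change was held by 11, and the median was −0.36. Over all 19967 tested genes 16 were lower and 10 higher, 51.95% were positive and the median was 0.04. These are the background for each list below.

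Genes of the postsynaptic list had negative fold changes nearly throughout, and its members Camk2a, Enc1 and Ddn fell. Like the other lists it was chosen with earlier results of these data known. Its counts and median are therefore a description and no independent support. Camk2a, the alpha subunit of calcium/calmodulin-dependent kinase II, was at 459.5, 457, 2541, 267, 1333 and 1362 CPM on the control diet and at 109.5, 124, 182, 84.2, 487, 202, 601 and 387 CPM after supplementation. Control-diet 3, 5 and 6 were above every supplemented library, and control-diet 1, 2 and 4 lay inside the supplemented range. Enc1, which encodes an actin-binding kelch protein of neurons, was at 115, 64, 612, 48.5, 209.6 and 159 CPM and at 23.4, 69.7, 41.9, 26.8, 16.3, 51.2, 30.3 and 46 CPM in the same order, with control-diet 2 and 4 inside the supplemented range. Ddn, which encodes the dendritic and postsynaptic protein dendrin, ranged from 29.2 to 1219 CPM (median 217) on the control diet and 10.7 to 168 CPM (median 44.7) after supplementation. The log2 fold changes were −1.98 (SE 0.41, adjusted p = 0.0212) for Camk2a, −2.40 (SE 0.40, adjusted p = 0.00164) for Enc1 and −2.36 (SE 0.53, adjusted p = 0.0464) for Ddn. Without control-diet 3, which was the highest library for each of them, they were −1.5 (adjusted p = 0.0742), −1.63 (adjusted p = 0.0222) and −1.37 (adjusted p = 0.27), so only Enc1 of these 3 passed there. With the Tatdn1 factor all 3 passed, at −2.15 (adjusted p = 0.00471), −2.57 (adjusted p = 0.0003) and −3.06 (adjusted p = 0.000614). With the leading number of the identifier as a factor none of the 3 passed, at −1.15 (adjusted p = 0.498) for Camk2a, −1.79 (adjusted p = 0.258) for Enc1 and −1.42 (adjusted p = 0.504) for Ddn. Within 16 the fold changes were −0.15, −1.10 and 0.10, and within 17 they were −1.85, −2.50 and −1.60.

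Only 3 of 38 tested genes of this list had a positive fold change (7.89%), beside 51.95% of all tested genes. The median was −0.68 on the log2 scale, beside 0.04. Of the 38, 3 passed as lower and 0 as higher, beside 16 and 10 of all 19967. With the Tatdn1 factor 11 passed as lower, beside 45 of all 19967, and the median was −0.89, beside −0.07. Without control-diet 3 the median was −0.54 and 1 passed. Among the libraries high in Tatdn1 the median was −0.80, beside −0.28 over all tested genes, and 0 passed. The 11 were the scaffold genes Shank1 and Homer2, the kinase genes Camk2a and Camk2b, the calmodulin-binding Nrgn, the spine regulators Kalrn, Baiap2 and Ppp1r9b, the GTPase regulator Agap2, and Ddn and Enc1. The mean centred log2 level of the list ran from −0.19 to 1.24 (median 0.58) on the control diet and −0.55 to 0.16 (median −0.15) after supplementation. Control-diet 4 was the lowest control library and overlapped the supplemented ones.

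**Figure D2:**
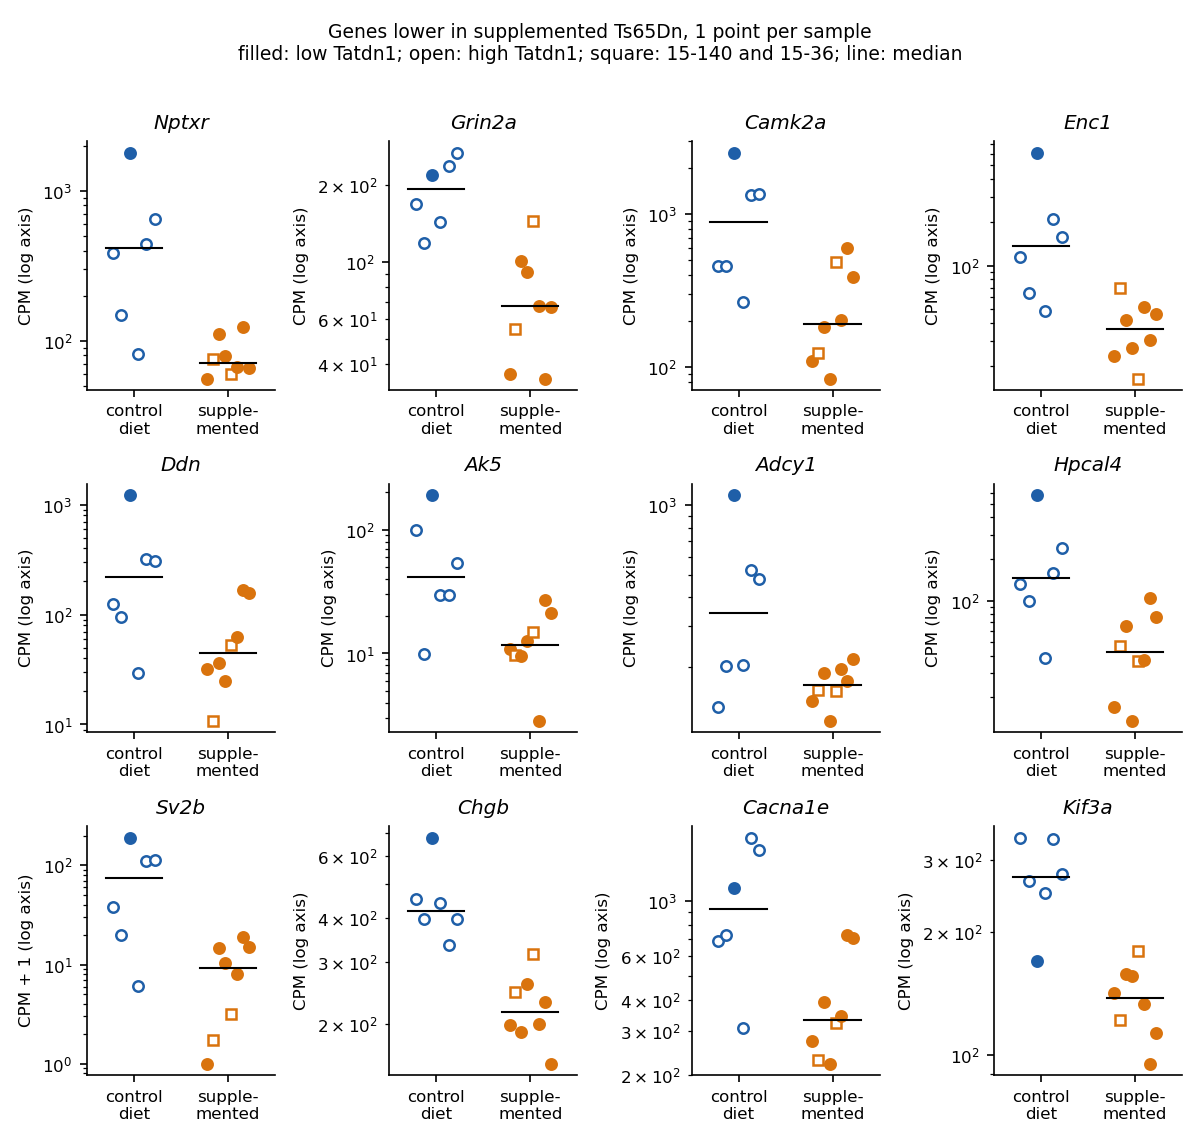
CPM (log axes; CPM + 1 for Sv2b) of 12 of the protein-coding genes that fell, by library in control-diet and supplemented Ts65Dn, with a line at each group's median. Filled points are libraries low in Tatdn1 and squares are supplemented Ts65Dn 2 and 5; the filled control-diet point, control-diet 3, is the highest control for Nptxr, Camk2a, Enc1 and Ddn and the lowest for Kif3a.

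Genes of calcium entry and calcium sensing also fell. Hpcal4, which encodes a neuronal calcium sensor of the hippocalcin family, ranged from 38.4 to 579.6 CPM (median 146) on the control diet and 13.5 to 105 CPM (median 42.3) after supplementation. Adcy1, a calmodulin-stimulated adenylyl cyclase, ranged from 133 to 1108 CPM (median 341) on the control diet and 116 to 217 CPM (median 167) after supplementation, and its supplemented libraries varied little while control-diet 3 was the highest. Cacna1e, the pore subunit of R-type calcium channels, ranged from 309.9 to 1793 CPM (median 929) on the control diet and 222 to 732 CPM (median 334) after supplementation. Log2 fold changes were −2.06 (SE 0.43, adjusted p = 0.0212) for Hpcal4, −1.39 (SE 0.31, adjusted p = 0.0464) for Adcy1 and −1.37 (SE 0.30, adjusted p = 0.0428) for Cacna1e. Without control-diet 3 Cacna1e (−1.34, adjusted p = 0.0307) still passed, and Hpcal4 (−1.42, adjusted p = 0.159) and Adcy1 (−0.86, adjusted p = 0.23) did not. With the leading number as a factor Hpcal4 was −1.55 (adjusted p = 0.409), Adcy1 −0.63 (adjusted p = 0.708) and Cacna1e −0.93 (adjusted p = 0.439), and none passed. Of 41 tested genes of the calcium signalling list, 3 were lower and 0 higher, 10 had a positive fold change and the median was −0.43.

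Chgb and Sv2b, genes of regulated secretion, fell. Chgb encodes chromogranin B, a core protein of dense-core granules, and was at 454, 397, 678, 442, 337 and 398 CPM in control-diet 1 to 6 and at 199, 246, 190.1, 261, 317, 199.8, 232 and 154 CPM in supplemented 1 to 8. Every supplemented library was below every control, as for 10 of the 19967 tested genes. Without control-diet 3, the highest, the fold change was −0.84 (adjusted p = 0.0342). It was −1.0 (SE 0.20, adjusted p = 0.0154) over all libraries, −1.13 (adjusted p = 0.00296) without 15-140 and 15-36 and −1.0 (adjusted p = 0.0225) with the Tatdn1 factor, and it passed in 13 of 14 settings that left out 1 library, missing without supplemented 6 (adjusted p = 0.0516). With the leading number of the identifier as a factor the call was lost, at −1.08 (adjusted p = 0.0982); within 16 the fold change was −0.94 (adjusted p = 0.915) and within 17 −1.60 (adjusted p = 0.546). Chga, the related chromogranin A, had a fold change of 0.11 (adjusted p = 0.95). Sv2b, a synaptic vesicle glycoprotein gene, was at 37, 19.1, 189, 5.15, 109 and 113 CPM and at 0, 0.754, 13.7, 9.32, 2.14, 7, 17.8 and 14.1 CPM in the same order, with control-diet 4 inside the supplemented range. Its fold change was −3.29 (SE 0.73, adjusted p = 0.0464), −2.81 (adjusted p = 0.0819) without control-diet 3 and −2.10 (adjusted p = 0.456) with the leading number as a factor. Of 44 tested vesicle genes 1 was lower and 0 higher, with a median of −0.03, and of 24 dense-core granule genes 1 was lower and 0 higher, with a median of −0.22.

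Kif3a encodes a motor subunit of kinesin-2, which moves cargo along axons and into cilia. Its level was 339, 267, 170.1, 248, 336 and 277 CPM on the control diet and 142, 122, 158, 156, 179, 134, 95.3 and 113 CPM after supplementation. All but supplemented 5 were below every control, and control-diet 3 was here the lowest control. The log2 fold change was −0.99 (SE 0.20, adjusted p = 0.0212), −1.08 (adjusted p = 0.00188) without control-diet 3 and −0.74 (adjusted p = 0.25) with the Tatdn1 factor, where it did not pass. With the leading number as a factor it was −1.19 (adjusted p = 0.0296). Of the 19 genes that passed and have a name, it was the sole gene that also passed with limma-voom and quality weights (adjusted p = 0.00363). Of 49 tested genes of motors and axonal transport it was the sole gene to change, and 25 had a positive fold change. Ak5, a brain adenylate kinase gene, ranged from 9.97 to 190.3 CPM (median 41.7) on the control diet and 2.84 to 26.9 CPM (median 11.8) after supplementation, with a fold change of −2.34 (SE 0.53, adjusted p = 0.0464) that was −1.69 (adjusted p = 0.215) without control-diet 3 and −2.28 (adjusted p = 0.339) with the leading number as a factor.

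Promoters of Chgb, Kif3a and Hpcal4 are shown as members of the set that fell and for which RefSeq promoter sequence was at hand, which was so for 6 of 13 protein-coding genes with a name that fell. Each runs from 250 bases before to 50 after the RefSeq start on GRCm38.p6, on the plus strand. Capitals mark the full cyclic AMP response element TGACGTCA and the E-box CANNTG, searched on both strands.
Chgb, chr2:132781392-132781691: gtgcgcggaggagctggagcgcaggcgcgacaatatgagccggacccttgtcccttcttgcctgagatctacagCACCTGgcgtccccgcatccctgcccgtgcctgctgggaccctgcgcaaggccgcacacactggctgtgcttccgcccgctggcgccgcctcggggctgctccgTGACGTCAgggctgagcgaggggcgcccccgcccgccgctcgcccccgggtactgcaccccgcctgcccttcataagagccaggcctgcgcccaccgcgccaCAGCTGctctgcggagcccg
Kif3a, chr11:53567119-53567418: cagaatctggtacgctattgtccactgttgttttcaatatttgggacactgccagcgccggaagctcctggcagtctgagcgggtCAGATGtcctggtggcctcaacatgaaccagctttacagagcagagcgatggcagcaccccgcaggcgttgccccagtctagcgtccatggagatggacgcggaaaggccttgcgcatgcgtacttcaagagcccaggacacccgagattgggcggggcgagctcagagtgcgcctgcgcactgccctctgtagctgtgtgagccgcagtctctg
Hpcal4, chr4:123183254-123183553: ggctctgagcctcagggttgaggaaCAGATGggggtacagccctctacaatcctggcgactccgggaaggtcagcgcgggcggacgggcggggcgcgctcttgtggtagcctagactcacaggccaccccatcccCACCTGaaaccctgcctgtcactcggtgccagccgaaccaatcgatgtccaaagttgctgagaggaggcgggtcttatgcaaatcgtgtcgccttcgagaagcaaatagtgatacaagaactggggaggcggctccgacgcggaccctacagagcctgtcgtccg

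The Chgb window held the response element 72 bases before the start, as did 1.79% of 32851 promoters of the same length. Of the 6 genes, Chgb, Kif3a, Hpcal4, Cacna1e, Sv2b and Adcy1, only Chgb held it, or its shorter form TGACG, which 20.8% of all promoters held. An E-box was held by 5 of the 6, all but Cacna1e, beside 72.3% of all promoters. A match is a description of the letters in the window and says nothing of use.

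Genes that rose were led by transcripts of the mitochondrial genome. mt-Nd1, a subunit of respiratory complex I, was at 257, 1862, 387, 843, 1371 and 696 CPM on the control diet and at 3528, 1156, 2601, 1953, 1464, 2232, 3109 and 2636 CPM after supplementation. Supplemented 2 and 5 lay inside the control range, and the other 6 were above every control. mt-Nd6, the complex I subunit encoded on the opposite strand, was at 287, 692, 585, 475, 782 and 535 CPM and at 1697, 644, 1385, 727, 706, 1285, 2098 and 1416 CPM in the same order, again with supplemented 2 and 5 inside the control range, joined by supplemented 4. Fold changes were 1.37 (SE 0.29, adjusted p = 0.0212) and 1.15 (SE 0.24, adjusted p = 0.0212), were 1.57 (adjusted p = 0.00218) and 1.36 (adjusted p = 0.000678) without 15-140 and 15-36, and did not pass with the Tatdn1 factor, at 1.12 (adjusted p = 0.26) and 0.64 (adjusted p = 0.454). Of 11 tested messenger RNAs of the mitochondrial genome, 3 were higher and 0 lower, 10 had a positive fold change and the median was 0.98. The median was 1.21 with 7 higher without 15-140 and 15-36, 0.57 with 0 called with the Tatdn1 factor, and 0.00 with 5 of 11 positive among the libraries high in Tatdn1. With the leading number as a factor mt-Nd1 was 1.43 (adjusted p = 0.046) and mt-Nd6 1.32 (adjusted p = 0.0132). Nuclear genes of oxidative phosphorylation had a median of 0.34, 0.18 without 15-140 and 15-36 and 0.71 with the Tatdn1 factor, with 0 of 81 passing by edgeR's quasi-likelihood test.

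mt-Atp6, a subunit of ATP synthase, was listed at 0 in all 6 controls and at 199, 0, 144, 254, 0, 0, 3508 and 504 CPM in supplemented 1 to 8, 3 of them at 0. Against a floor of 3 counts over the 6 controls it was at least 10800-fold higher, and at least 2940-fold without supplemented 7, which held most of it (edgeR's quasi-likelihood test, adjusted p = 0.00172). With the Tatdn1 factor the adjusted p was 0.186. mt-Atp8, which shares a transcript with it, was counted in every library, at 86.1 to 1178 CPM on the control diet and 284 to 1047 CPM after supplementation. Mitochondrial genes have near-identical nuclear pseudogenes, of which Gm28437 and Gm28661 passed as higher, so the split of reads between copies is uncertain.

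Rprl2, a small RNA gene related to the RNA of ribonuclease P, was at 0.444, 0, 0, 0.309, 0.448 and 4.67 CPM on the control diet and at 862, 0, 1360, 565, 0.0856, 661, 1605 and 0 CPM after supplementation. The 5 high libraries were all low in Tatdn1, but supplemented 8 and control-diet 3, also low in Tatdn1, were listed at 0. Its fold change of 9.27 (SE 1.48, adjusted p = 0.000876) became −0.53 (adjusted p = 0.95) with the Tatdn1 factor. Rmrp, the RNA of ribonuclease MRP, is listed under 2 identifiers. Under 1 of them it was at 0, 0, 0, 94.8, 0 and 139.9 CPM on the control diet and at 0 in all 8 supplemented libraries, at least 811-fold lower against a floor of 3 counts (adjusted p = 0.00364), with the signal in control-diet 4 and 6 only. The Rmrp call was lost with the Tatdn1 factor (adjusted p = 0.166), with the leading number as a factor (adjusted p = 0.179), with a robust fit (adjusted p = 0.188) and with the mitochondrial ribosomal RNA share as a covariate (adjusted p = 0.212). Under the other it was at 7.49 to 269 CPM and 36.8 to 417 CPM, with a fold change of 1.42 (adjusted p = 0.701), so the split of reads between the identifiers and the direction for Rmrp are uncertain. Over 91 small RNA genes the median fold change was 1.19, 3.11 without control-diet 3 and −1.16 with the Tatdn1 factor.

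Cbll1, also called Hakai, encodes an E3 ubiquitin ligase tied to RNA methylation. It was at 0, 0.38, 0, 0, 0.0896 and 0 CPM on the control diet and at 17.2, 11.1, 0.801, 11.2, 15.6, 12.2, 9.33 and 0.729 CPM after supplementation. Every supplemented library was above every control, 4 of which were at 0, although supplemented 3 and 8 were under 1 CPM. Such separation was seen for 4 of the 19967 tested genes. The fold change of 6.66 (SE 1.48, adjusted p = 0.0464) remained past the threshold with the Tatdn1 factor (adjusted p = 0.0303) and without 15-140 and 15-36 (adjusted p = 0.0415), and was lost with the leading number as a factor (5.64, adjusted p = 0.374). In control-diet 2N mice Cbll1 stood at 3.61 to 32.4 CPM and in supplemented 2N mice at 0 to 17.7 CPM.

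**Figure D3:**
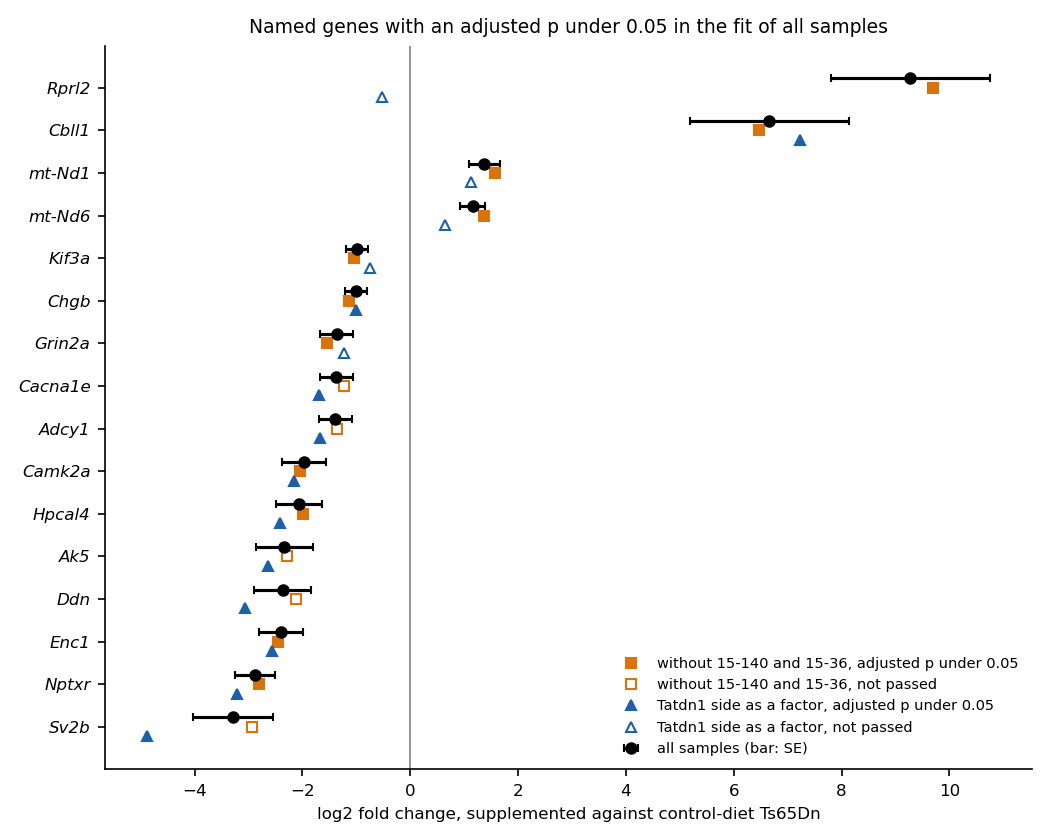
Log2 fold change with its standard error, supplemented less control-diet Ts65Dn, for 16 genes that passed, over all libraries (circles), without 15-140 and 15-36 (squares) and with the Tatdn1 pattern as a factor (triangles). Filled symbols passed an adjusted p of 0.05; the sign is shared for all but Rprl2, which is at −0.53 with the factor.

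Leaving out single Ts65Dn libraries separated the calls. Nptxr, Enc1, Rprl2, mt-Atp6 and Rmrp passed in all 14 such settings and Chgb in 13. The calls of mt-Nd1 and mt-Nd6 ended without control-diet 1, control-diet 6 or supplemented 1, and that of Kif3a without control-diet 1, 5 or 6 or supplemented 6. Hpcal4 was lost without control-diet 3 or 6 or supplemented 1, 4 or 6. Camk2a was lost without control-diet 3, 5 or 6 or supplemented 1, 3, 4 or 6, and Cbll1 without control-diet 1, 4, 5 or 6 or supplemented 1, 4 or 6. Cacna1e passed in 6 of the 14, Sv2b, Ddn and Ak5 in 5 each, and Adcy1 and Grin2a in 4 each, with libraries of both groups ending the call. The sign of each of the 19 genes that passed and have a name was kept in all 14 settings.

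The captured cells were checked against markers of cholinergic neurons. Chat, which makes acetylcholine and was the target of the stain, was at 13.8, 18.1, 0, 16.2, 0.896 and 0.543 CPM on the control diet and at 5.37, 53.7, 4.69, 10.01, 40.7, 8.96, 0.565 and 1.46 CPM after supplementation. Slc18a3, the vesicular acetylcholine transporter, was at 0 in 4 of 6 control libraries and at 0.875 to 19.6 CPM in the 8 supplemented ones. Slc5a7, which takes choline back into the terminal, was at 2.49, 0, 0, 22.3, 0.0896 and 6.62 CPM and at 1.11, 26.5, 31.7, 30.5, 23.7, 23.4, 3.11 and 10.7 CPM in the same order. None of the 3 was above 53.7 CPM in any Ts65Dn library, and control-diet 3 had 0 counts for each. Control-diet 3 also had the fewest total counts of the 24 libraries (4688258). Ngfr, a receptor gene for nerve growth factor, ranged from 1.93 to 40.3 CPM (median 15) on the control diet and 1.7 to 84 CPM (median 53.7) after supplementation. Lhx8, the homeobox factor that specifies these neurons, ranged from 0 to 17 CPM (median 4.59) on the control diet and 4.79 to 62.3 CPM (median 25.5) after supplementation.

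None of the 18 tested cholinergic genes passed in either direction, while 16 had a positive fold change and the median was 1.05 on the log2 scale. Fold changes were 1.5 for Ngfr (adjusted p = 0.244), 2.13 for Lhx8 (adjusted p = 0.357) and 0.84 for the acetylcholinesterase gene Ache (adjusted p = 0.404). The list's mean centred log2 level ran from −3.82 to 0.17 (median −0.82) on the control diet and −0.36 to 1.28 (median 0.48) after supplementation. Control-diet 3 was far below every other library, and without it the median was 0.80. With the Tatdn1 factor the median was 2.15 and again 0 passed.

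Slc17a7 and Neurod2, markers of cortical and hippocampal glutamatergic neurons measured for other cells in the capture, stood in much the same order as several genes that fell. Slc17a7, their vesicular glutamate transporter gene, was at 47.5, 15.6, 798, 0, 89.5 and 107 CPM on the control diet and at 0, 9.72, 8.13, 0, 0, 5.47, 6.22 and 14.7 CPM after supplementation. Neurod2, a factor of cortical excitatory neurons, was at 0, 3.42, 200, 0, 24.6 and 33.8 CPM and at 7.11, 0, 0.687, 0.173, 0, 0.656, 0 and 2.6 CPM in the same order. Control-diet 3, 5 and 6 were high for both, as they were for Camk2a, Ddn and Sv2b, and control-diet 4 was at 0 for both. Slc17a7 had a fold change of −4.98 (SE 1.19, adjusted p = 0.0661) and Neurod2 −4.94 (SE 1.40, adjusted p = 0.165). With the Tatdn1 factor both passed, at −5.06 (adjusted p = 0.0249) and −7.95 (adjusted p = 0.0167). Over 14 tested markers of these neurons the median was −0.76, 4 were positive and 0 passed. Their summed level ran from 154 to 1183 CPM on the control diet and from 111 to 282 CPM after supplementation. Control-diet 3 held the 1183 CPM, and the next control, control-diet 6, held 338 CPM. The part of such cells in the lower synaptic genes was not tested. Of the genes that fell, Chgb and Kif3a differed from this order: control-diet 4, at 0 for both markers, was among the controls above every supplemented library for each.

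**Figure D4:**
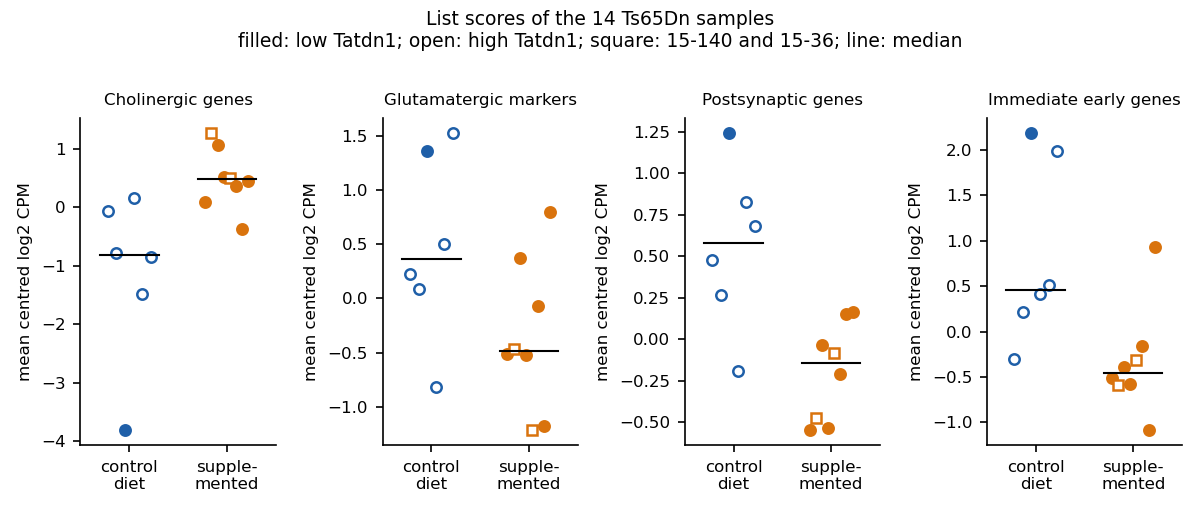
Mean centred log2 CPM of 4 gene lists (cholinergic, glutamatergic, postsynaptic and immediate early) in each library of control-diet and supplemented Ts65Dn. Filled points are libraries low in Tatdn1 and squares are supplemented Ts65Dn 2 and 5; control-diet 3 is at −3.82 for cholinergic genes and at 1.24 for postsynaptic ones.

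Other cell types gave no called marker by edgeR's quasi-likelihood test. Medians were 0.36 over 15 tested markers of GABAergic neurons, −0.55 over 13 of striatal neurons, 0.13 over 15 of astrocytes, 0.48 over 15 of oligodendrocytes and −0.05 over 14 of microglia. They were 0.07 over 10 markers of oligodendrocyte precursors, 0.23 over 15 of vessels, −0.03 over 6 of ependyma and choroid plexus and 0.52 over 3 of blood, and general neuronal markers had 0.36 over 16. Gad1, which makes GABA, was at 450, 511, 70.4, 611, 258 and 162 CPM on the control diet and at 384 to 634 CPM after supplementation, and control-diet 3 was again the lowest. The summed oligodendrocyte level was 949 to 4410 CPM on the control diet and 3065 to 4352 CPM after supplementation, so glial RNA was present in both groups.

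Immediate early genes, which neurons switch on after firing, had a median of −0.91 over 24 tested, with 4 positive and 0 passing. Arc, which regulates AMPA receptors after activity, was at 46.7, 61.1, 232, 55, 160.3 and 190.4 CPM on the control diet and at 19.8, 45.6, 18.5, 31.9, 25.9, 45.9, 80.6 and 58.8 CPM after supplementation, with a fold change of −1.60 (SE 0.42, adjusted p = 0.12). Npas4, an activity-dependent transcription factor gene, was at 31.6, 57.3, 52.6, 14.9, 33.4 and 80 CPM and at 4.58, 4.69, 4.81, 2.59, 22.4, 14.4, 7.63 and 28.5 CPM in the same order, with −2.0 (SE 0.66, adjusted p = 0.236). The groups overlapped for both. The list's mean level ran from −0.31 to 2.19 (median 0.46) on the control diet and −1.09 to 0.93 (median −0.45) after supplementation, and without control-diet 3 the median was −0.42.

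Genes that handle choline and methyl groups did not pass. Of 38 tested genes of choline and one-carbon metabolism, 19 had a positive fold change, 0 passed by edgeR's quasi-likelihood test and the median was 0.01, near the 0.04 of all tested genes. Etnk1, an ethanolamine kinase gene of phospholipid synthesis, had a fold change of 0.12 (SE 0.26, adjusted p = 0.961), and Ahcyl1, related to the enzyme that hydrolyses S-adenosylhomocysteine, had 0.09 (SE 0.24, adjusted p = 0.968). Of 48 genes that write, read or erase DNA and histone methylation, 19 were positive and 0 passed, with a median of −0.09. The histone methyltransferase gene Kmt2a had a fold change of −0.18 (SE 0.16, adjusted p = 0.83) and Nsd1 had −0.02 (SE 0.19, adjusted p = 0.994).

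The triplicated genes themselves did not pass either. Over 76 tested genes of the chromosome 16 segment the median was −0.08 with 32 positive, and over 34 of the chromosome 17 segment it was −0.17 with 14 positive. App, the amyloid precursor gene, had −0.15 (SE 0.14, adjusted p = 0.853), the kinase gene Dyrk1a −0.39 (SE 0.27, adjusted p = 0.747) and the superoxide dismutase gene Sod1 0.61 (SE 0.41, adjusted p = 0.741). Cytosolic ribosomal protein genes had a median of −0.27 over 79 tested, −0.53 without 15-140 and 15-36, and 0.23 with the Tatdn1 factor, so the sign turned with that factor. The median over the 44 vesicle genes turned likewise, to 0.16, and that of all tested genes was −0.07 there.

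Other lists held no call apart from Cacna1e among 48 genes of voltage-gated channels, where 21 were positive and the median was −0.16. Neurotrophin and growth factor signalling genes had a median of −0.14 (24 tested, 7 positive), and endosome and lysosome genes 0.20 (40 tested, 27 positive). Proteasome genes had 0.19 over 36 tested, −0.02 without 15-140 and 15-36, and chaperones 0.06 over 36 tested, −0.12 without them. Transfer RNA genes of the mitochondrial genome had 0.20 over 21 tested and −0.96 with the Tatdn1 factor.

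**Figure D5:**
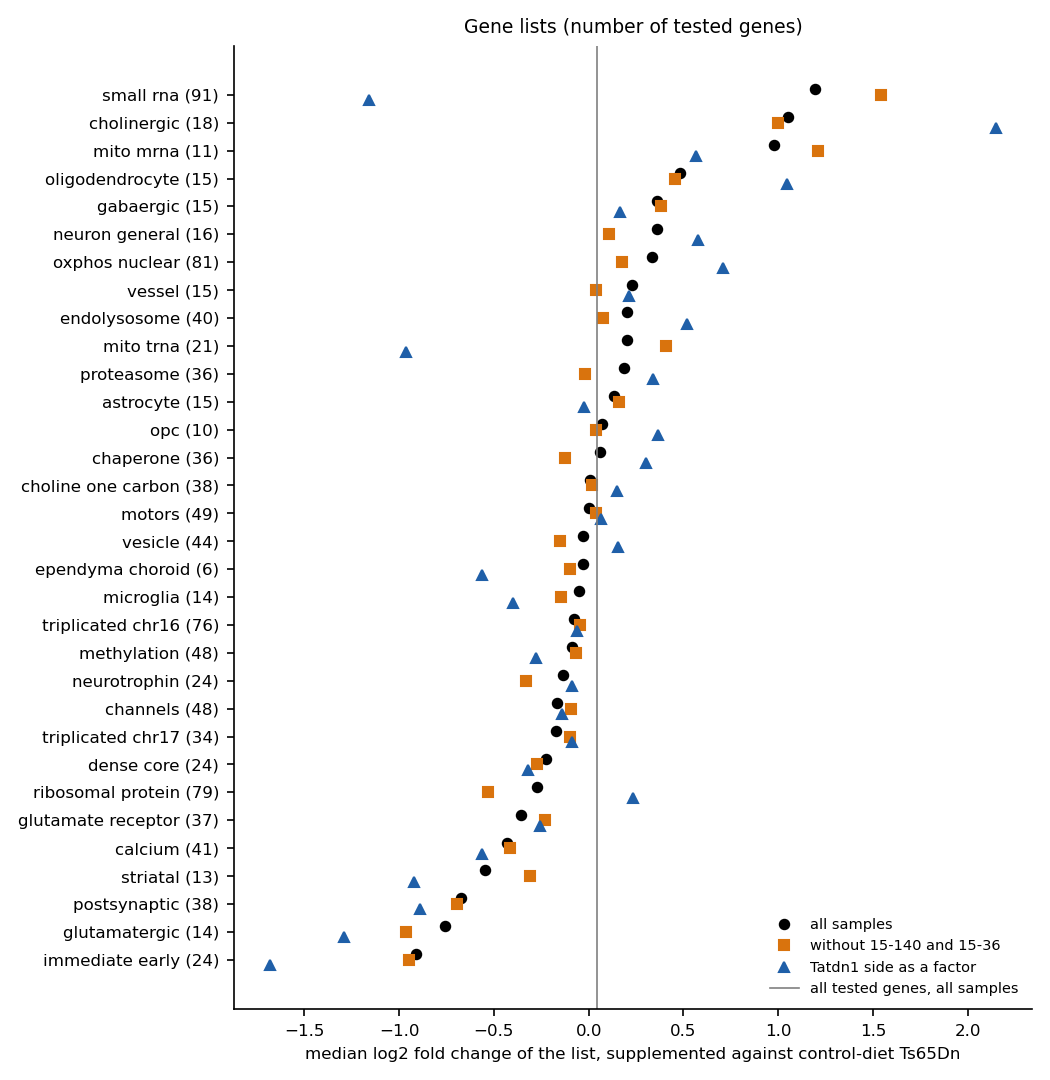
Median log2 fold change, supplemented less control-diet Ts65Dn, of each gene list over all libraries, without 15-140 and 15-36, and with the Tatdn1 pattern as a factor; the line is the median of all tested genes over all libraries. Postsynaptic and immediate early genes lie left of the line and cholinergic genes right of it in the 3 settings, and small RNA and ribosomal protein genes change side.

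Among the 19967 genes, 10 had every supplemented library below every control (0.0501%) and 4 had every one above (0.0200%). Of the 3003 assignments of 8 and 6 libraries, 1 gives each such order. Over 19967 genes some of each kind are therefore reached without any effect of the diet. The counts of 10 and 4 were not tested against this, so separation alone does not mark a gene as changed. Among the 10 were Chgb, Trio and Myo5b, of which Trio and Myo5b were named after their values were seen. Trio, a guanine nucleotide exchange factor for small GTPases in neurons, ranged from 602 to 1046 CPM on the control diet and from 368 to 587 CPM after supplementation, with a fold change of −0.63 (adjusted p = 0.149). Myo5b, a myosin that carries recycling endosomes, ranged from 66.3 to 215 CPM and from 0.632 to 65.5 CPM, with −2.10 (adjusted p = 0.0662). Only Chgb of the 10 passed the threshold. Cbll1 was the single gene of known name among the 4.

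Whether the diet acted differently in trisomic and disomic mice was tested as an interaction. It was found for 1 of 19967 genes (0.00501%), Mir6236, and 1683 had an unadjusted p under 0.05. The diet changed 1 gene in 2N mice (0.00501%), Mir6236 again. Mir6236, an annotated microRNA gene, was at 2790, 2022, 702, 1244, 2384 and 1447 CPM in control-diet Ts65Dn 1 to 6 and at 589.7, 849, 693, 877, 1799, 766, 253 and 1794 CPM in supplemented Ts65Dn 1 to 8. It was at 163 to 604 CPM in control-diet 2N mice and at 1128 to 2407 CPM in supplemented 2N mice, where the groups did not overlap. The log2 fold change was −0.89 (SE 0.29, adjusted p = 0.24) in Ts65Dn and 2.17 (SE 0.35, adjusted p = 0.00413) in 2N, a difference of −3.06 (adjusted p = 0.000705). With limma-voom, the robust fit or the mitochondrial ribosomal RNA share as a covariate 0 genes passed in the interaction. The count of genes in the interaction was 24 without 15-140 and 15-36 and 60 without those 2, control-diet 3 and supplemented 7. Leaving out the 14 Ts65Dn libraries in turn, it was 12 without control-diet 3, 11 without control-diet 2, 5 without supplemented 5, 4 without supplemented 2, 3 without control-diet 5 or 6 and 2 without control-diet 4 or supplemented 8.

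For the genes that fell in Ts65Dn the difference from the 2N effect did not pass. Chgb had a median of 456 CPM in control-diet 2N mice and 275 CPM in supplemented ones, with a 2N fold change of −0.72 (adjusted p = 0.566) and an interaction of −0.28 (adjusted p = 0.958). Kif3a had 2N medians of 256 and 236 CPM and an interaction of −0.99 (adjusted p = 0.289). Nptxr had 2N medians of 146 and 111 CPM and an interaction of −2.30 (adjusted p = 0.193), which passed with the Tatdn1 factor at −2.63 (adjusted p = 0.0392). For mt-Nd1 the interaction was 1.95 (adjusted p = 0.158) and passed without 15-140 and 15-36, at 2.15 (adjusted p = 0.0157). Control-diet 2N mice stood at 2073 CPM for mt-Nd1 and supplemented 2N mice at 1211 CPM, medians that lay the opposite way from Ts65Dn.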

How the data were processed

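The authors deposited a table of expected counts per gene for 24 libraries, with each library's own file of expected counts and of TPM, made with RSEM after Trimmomatic 0.39 and STAR, per the submitters' processing notes. Those notes name the builds GRCm39 and mm10 without saying which served here. The library kit was a stranded total RNA kit for low input, per the labels' protocols. All 24 columns of the table equalled the sample files, and totals ran from 4688258 to 13443438 counts. Genes with few counts, in particular those listed at 0 in a group, are limited by this depth.

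Expected counts were rounded to whole numbers and tested with edgeR 4.0.16 in R 4.3.3. Genes were kept by its default filter at a minimum count of 10, scaled by TMM, and fitted by quasi-likelihood over the 4 groups of genotype and diet in all 24 samples, which shared 1 estimate of spread. The common biological coefficient of variation was 1.4. Tests were two-sided, with Benjamini-Hochberg adjustment over all 19967 tested genes and a threshold of 0.05. Fold changes are supplemented over control-diet, as edgeR's fit gave them at its default settings. A prior count of 2 was used only for log2 levels, as in the mean levels of gene lists and the dosage index. Of 55414 identifiers, 52081 had a symbol in GENCODE M21 or, where it gave none, in a second list of gene names. TPM values were deposited by the authors and were used only as a description of level, with no test. Samples were grouped by title, and no column was left unused.

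The rule for named genes took every gene that passed and has a gene name, from each gene list the members that passed and up to 4 of the highest mean CPM, calls of the interaction, and a few fixed genes (Chat, Slc18a3, Slc5a7, Ache, Ngfr, App, Sod1, Dyrk1a, Bc1 and Slc17a7). Tatdn1, Snord15b, Snord21, Rps3, Rpl5, mt-Atp8, Npas4, Lhx8, Nptx1, Trio, Myo5b, the second Rmrp identifier and the postsynaptic genes that passed only with the Tatdn1 factor were named after their values were seen. Some genes are counted but not reported here by name. The comparison and the gene lists were chosen with earlier results of these data known. The division of libraries at 1000 CPM of Tatdn1 was chosen after seeing the data. Alternatives were DESeq2 1.42.0, limma 3.58.1 (voom with quality weights), and other filters and scaling. Others took the leading number of the animal identifier as a factor or the share of mitochondrial ribosomal RNA as a covariate, or left out libraries. On counts simulated for this comparison with 18496 genes, the edgeR steps recovered 68 of 100 genes changed 4-fold and 99 of 100 changed 16-fold. The same steps called 8 of 18296 unchanged genes. These rates describe the simulated counts only. Whether they hold for libraries that carry the Tatdn1 pattern or lie far from their group was not tested.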

Additional observations from a re-analysis of the deposited data

Results flagged for a closer look

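Control-diet Ts65Dn 3 stood apart from the other 5 control libraries for 5 of the genes that fell. It held 1804 CPM of Nptxr where the next control held 648, 612 of Enc1 (next 209.6), 678 of Chgb (next 454), 579.6 of Hpcal4 (next 239) and 1219 of Ddn (next 323). Of these, Nptxr, Enc1 and Chgb passed the threshold without it, as the values given with those genes show. This library was also the only control low in Tatdn1, had 0 counts of Chat, and was highest in Slc17a7. It had the fewest counts (4688258) and the fewest genes with a count (13102) of the 24 libraries. The part of these in its levels was not tested.

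Control-diet Ts65Dn 6 held 4.67 CPM of Rprl2 (next 0.448), and control-diet Ts65Dn 2 held 0.380 CPM of Cbll1 (next 0.0896), both at low counts. Supplemented Ts65Dn 7 held 3508 CPM of mt-Atp6 where the next supplemented library held 504. Of 40 groups of 4 to 10 libraries examined for a library far from its group, 8 were found. Chance alone marks about 1 in 20 groups, but 5 of the 8 were the same library and the genes were chosen because they passed, so the groups were not independent.

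The effect of the diet on Mir6236 differed between genotypes by −3.06 on the log2 scale in edgeR's interaction term. Supplementation raised it in 2N (2.17), and the fold change in Ts65Dn (−0.89) did not pass. The interaction count was 0 with limma-voom, the robust fit and the mitochondrial ribosomal RNA covariate, so Mir6236 did not pass there.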

How the results depend on the processing

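The count of 26 genes changed by supplementation became 349 with DESeq2, 218 with no filter, 4 with limma-voom, 13 with a robust fit, 6 with the Ts65Dn libraries alone, 15 with the leading number of the animal identifier as a factor and 59 with the mitochondrial ribosomal RNA share as a covariate. It was 53 at an adjusted p of 0.1 and 1920 at an unadjusted p of 0.05. Within animal numbers beginning with 16 it was 52 and within 17 it was 45. With libraries left out it was 69 (15-140 and 15-36), 77 (control-diet 3 and supplemented 7), 173 (those 4), and 12 to 80 leaving out 1 Ts65Dn library at a time. With the Tatdn1 factor it was 53, among libraries high in Tatdn1 4 and among those low in it 340. The libraries low in Tatdn1 gave 6 supplemented against 1 control-diet library, control-diet 3. The count among them therefore cannot separate the diet from that single library, and no conclusion is drawn from it. Of the 26, 26 were called by DESeq2, 1 by limma-voom, 2 within 16 and 0 among libraries high in Tatdn1.

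The count of 1 gene in the interaction became 366 with DESeq2, 125 with no filter, 12 with the identifier factor and 2 with the Tatdn1 factor. It was 0 with limma-voom, 0 with the robust fit and 0 with the covariate. It was 24 without 15-140 and 15-36, 11 without control-diet 3 and supplemented 7, 60 without those 4, and 1 to 12 leaving out 1 Ts65Dn library at a time (the 2N libraries were not left out). The difference in mitochondrial ribosomal RNA share was 18.8 points within 16, 1.03 points among libraries high in Tatdn1, and 8.67 to 12.3 points leaving out 1 library.

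Sign turned for Rprl2 (−0.53 with the Tatdn1 factor, −4.38 among libraries high in Tatdn1, −6.67 within 17), for Adcy1 within 16 (0.18) and for Ddn within 16 (0.10). The cause was not tested. Of 337 values of the 19 named genes under settings other than leaving out 1 library, 180 kept direction and call, 152 kept direction only and 5 turned. Leaving out 1 library turned 0 of 266 values and ended the call in 89. No paired analysis was possible because the labels give no number that pairs supplemented with control-diet animals.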
